A study of Drosophila melanogaster with 12 samples.

Results

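The 10 genes described here are protein-coding genes of the *Drosophila melanogaster* Y chromosome that are tied to male fertility: *kl-2*, *kl-3*, *kl-5*, *ORY*, *CCY*, *PRY*, *WDY*, *Pp1-Y1*, *Pp1-Y2* and *Ppr-Y*. They were taken by symbol, with no measured value in the rule, as 10 of the 17807 gene symbols with deposited counts. Earlier results of these data were known when the genes were chosen. Of 193 genes annotated on the Y chromosome, 113 had deposited counts, and the other 103 of these serve as a comparison.

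RNA was extracted from pools of 20 whole adult flies and sequenced as stranded mRNA libraries. There were 12 libraries in 4 groups of 3 biological replicates, namely male *bmm* overexpression, male control, female *bmm* overexpression and female control. The *bmm* overexpression flies were *da-GAL4>UAS-bmm*, in which the constitutive *daughterless* driver switches on a transgene of *brummer*, the triglyceride lipase of fat storage droplets. Controls were *da-GAL4/+* and thus carry the same driver, and both transgenic lines had been backcrossed to *w1118*. All flies were fed SY10/10 food and were kept with the other sex for 48 hours before sorting. *+/UAS-bmm* flies were not analysed here, so the transgene insertion and its activity cannot be told apart. The age of the flies at freezing, and which parent gave which transgene and hence which stock gave the Y chromosome, were not given in the sources used here, so a difference in the Y chromosome itself and a difference in *bmm* cannot be told apart. In the whole-fly pools, fewer germ cells and less RNA per cell also cannot be told apart.

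Males need the Y chromosome to make sperm, although they do not need it to live. Its best known genes are transcribed in primary spermatocytes, and some of them hold introns so large that their transcription forms visible loops in the spermatocyte nucleus. *kl-2*, *kl-3* and *kl-5* encode heavy chains of the dynein motors that bend the sperm tail. *ORY* and *CCY* are the fertility factors *ks-1* and *ks-2*, and both encode proteins with coiled coils. *WDY* is the fertility factor *kl-1* and encodes a protein with WD40 repeats, and *PRY* was named for a resemblance to polycystin. *Pp1-Y1* and *Pp1-Y2* encode catalytic subunits of the protein phosphatase PP1.

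The gene models, given on the BDGP6.54 annotation, differ far more in span than in coding length. *kl-5* (FBgn0267433) runs from 22250 to 137486 on the minus strand, *kl-3* (FBgn0267432) from 336381 to 563165 on the plus strand and *kl-2* (FBgn0001313) from 573088 to 664173 on the plus strand. These 3 dynein genes have 17, 16 and 12 exons, and their exons add up to 13680, 13882 and 13386 bases. The widest gene is *Ppr-Y* (FBgn0046697), from 1636574 to 1884846 on the plus strand, whose 1710 bases of exon make up 0.689% of its span of 248 kb. *WDY* (FBgn0267449), from 2273422 to 2487777 on the plus strand, has 3394 bases of exon in 214 kb. *PRY* (FBgn0267489) lies from 146092 to 192020 on the minus strand, *ORY* (FBgn0046323) from 3561745 to 3618339 and *CCY* (FBgn0267592) from 3649996 to 3666928, both on the plus strand. Introns are absent from *Pp1-Y1* (FBgn0261399), from 9833 to 10786 on the plus strand, and from *Pp1-Y2* (FBgn0046698), from 3539437 to 3540722 on the minus strand. For 6 of the 10 genes the annotated exons hold the coding sequence and stop codon and no UTR, so levels per length rest on coding sequence there. Of the 10, 5 hold another annotated gene within their span, and none shares exon bases with it.

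Library totals lay between 20068187 and 34799635 counts. A floor of 3 counts was set for detection, equal to 0.0798 CPM in the deepest library and to 0.156 CPM in the shallowest. CPM here is the count divided by the authors' factor for each library. *bmm* itself, the gene that was overexpressed, was higher in *bmm* overexpression than in control flies by 5.21 on the log2 scale in males (SE 0.35) and by 5.14 in females (SE 0.07). Transcripts of yolk, vitelline membrane and chorion genes, which belong to female tissues, summed to 141, 101 and 116 CPM in *bmm* overexpression males and to 3571, 848 and 445 CPM in control males. All 3 control male libraries were thus above all 3 *bmm* overexpression male libraries. Control male library 1 was the highest, and the Y-linked genes are also given without it, which leaves the difference between the groups in place. Male accessory gland genes summed to 0.47 to 1.04 CPM in the 6 female libraries and to at least 6447 CPM in the males.

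Of the 10 genes, 9 were detected, and all 9 were detected in each of the 6 male libraries. The dynein gene *kl-5* had the most counts in sum, with 416, 454 and 443 in *bmm* overexpression males and 518, 356 and 366 in control males. On the CPM scale these were 14.0, 13.7 and 14.4 in *bmm* overexpression males and 13.8, 13.3 and 13.0 in control males. The 2 groups overlapped, and they were 0.06 apart on the log2 scale (SE 0.07, 95% interval −0.11 to 0.23, adjusted p = 0.96). *kl-2* had 193, 219 and 174 counts in *bmm* overexpression males and 213, 185 and 146 in control males. The highest and the lowest *kl-2* level both came from control males, at 6.89 and 5.18 CPM, and its log2 fold change was 0.07 (SE 0.14, 95% interval −0.26 to 0.40, adjusted p = 0.98). *kl-3*, the last of the dynein genes, had 102, 112 and 80 counts in *bmm* overexpression males and 142, 93 and 101 in control males.

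*kl-3* was the only one of the 9 genes whose CPM did not overlap between the 2 male groups. It lay at 3.43, 3.39 and 2.60 CPM in *bmm* overexpression males and at 3.78, 3.46 and 3.58 CPM in control males, so that the gap between the nearest libraries was smaller than the worth of 1 count. Over all genes tested, 22.8% had groups that did not overlap. The log2 fold change of *kl-3* was −0.21 (SE 0.16, 95% interval −0.59 to 0.16, adjusted p = 0.84).

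**Figure D1:**
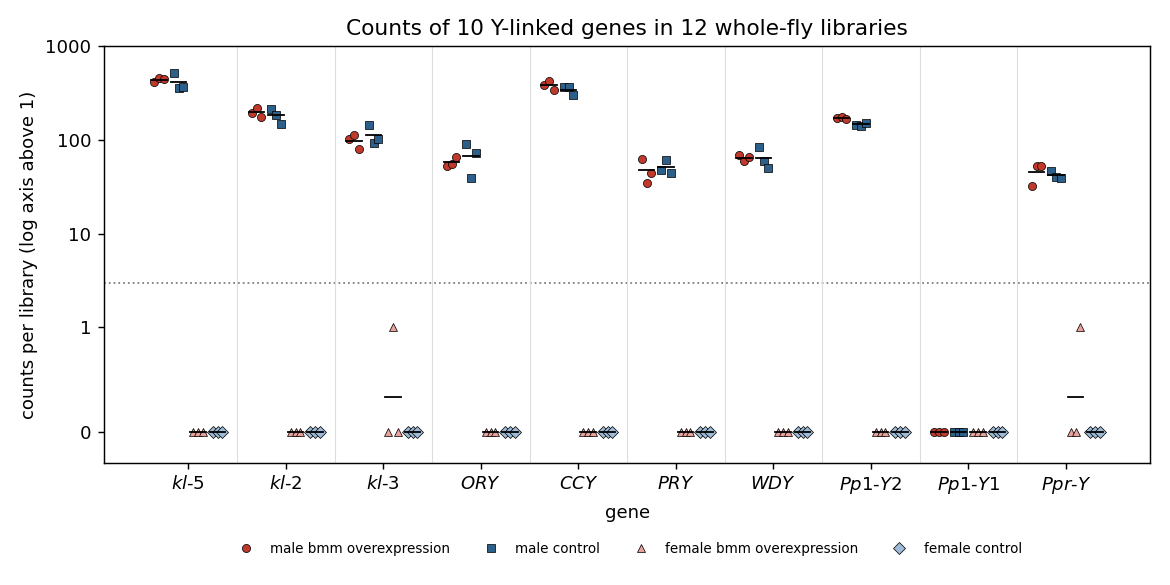
Deposited counts of the 10 Y-linked genes (x axis) in each of the 12 libraries (y axis, log scale above 1 count), with male *bmm* overexpression, male control, female *bmm* overexpression and female control from left to right within each gene. Points are libraries, black bars are group means, and the dotted line marks 3 counts, and 9 genes lie between 32 and 518 counts in males while no female library exceeds 1 count.

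In the genes that encode proteins other than dyneins, the male groups overlapped throughout. *CCY* had 379, 427 and 342 counts in *bmm* overexpression males and 362, 364 and 303 in control males, next to *kl-5* in their sum. Its CPM were 12.7, 12.9 and 11.1 in *bmm* overexpression males, within the control values of 9.63, 13.6 and 10.7. The log2 fold change of *CCY* was 0.11 (SE 0.13, 95% interval −0.19 to 0.41, adjusted p = 0.94), and without control male library 1 it was 0.01.

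*ORY* was lower than *CCY* in every male library, with 52, 55 and 66 counts in *bmm* overexpression males and 89, 39 and 72 in control males. Control males held both the highest and the lowest library, at 2.55 and 1.45 CPM. The log2 fold change of *ORY*, −0.22 (SE 0.25, 95% interval −0.79 to 0.35, adjusted p = 0.93), was the most negative among the 9 genes and smaller than its standard error.

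*WDY* had 69, 59 and 65 counts in *bmm* overexpression males and 83, 60 and 50 in control males, and its group means were 2.07 ± 0.27 and 2.07 ± 0.26 CPM (SD, n = 3 each). Its log2 fold change was −0.02 (SE 0.19, 95% interval −0.45 to 0.42, adjusted p = 1). The group means of *WDY* were thus nearly equal, and its interval spans both directions.

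*PRY* varied most among the 9, with 62, 35 and 44 counts in *bmm* overexpression males and 48, 61 and 44 in control males. Its levels ran from 1.06 CPM in a *bmm* overexpression library to 2.27 CPM in a control library, and each group covered most of that range. The log2 fold change was −0.16 (SE 0.31), and its 95% interval, −0.88 to 0.56, was the widest (adjusted p = 0.97).

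The 2 phosphatase genes stood far apart. *Pp1-Y2* had 170, 175 and 167 counts in *bmm* overexpression males and 145, 140 and 152 in control males, which made 5.72, 5.29 and 5.43 CPM in *bmm* overexpression males and 3.86, 5.21 and 5.39 CPM in control males. Control library 1 was the low one, and the groups overlapped. The log2 fold change of *Pp1-Y2* was the most positive of the 9 at 0.18 (SE 0.15, 95% interval −0.18 to 0.54, adjusted p = 0.87), and it was 0.04 without control library 1.

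*Pp1-Y1* had 0 counts in all 12 libraries, among 360724217 counts in all, and a count of 0 allows a level of up to 0.0798 to 0.112 CPM in the male libraries. The authors had removed alignments of low mapping quality before counting, so a read that matches several places equally well could be missing from any gene. Its part in the 0 of *Pp1-Y1* was not tested.

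*Ppr-Y* was the least abundant of the detected genes in reads. It had 32, 52 and 52 counts in *bmm* overexpression males and 46, 40 and 39 in control males. The 3 control libraries, at 1.22 to 1.49 CPM, lay inside the range of the *bmm* overexpression libraries, 1.08 to 1.69 CPM. Its log2 fold change was 0.08 (SE 0.23, 95% interval −0.44 to 0.60, adjusted p = 0.99).

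Across the genotype comparison in males, 0 of the 9 genes that passed the filter on low counts were differentially expressed, a call that asked for an adjusted p under 0.05 in the exact test of edgeR (Benjamini-Hochberg) together with a log2 fold change beyond 1 in either direction. Of all 13632 genes tested, 1.5% met that rule (34 higher and 171 lower in *bmm* overexpression males), and 4.31% had an adjusted p under 0.05 at any fold change. None of the 9 reached an unadjusted p under 0.05 either, and DESeq2 and limma-trend gave 0 of 9 as well. With 9 genes at these rates, a count of 0 is near the background. The 9 log2 fold changes ran from −0.22 to 0.18, with 5 above 0 and 4 below, and their median was 0.06 beside −0.01 for all genes tested. The 95% intervals put the fold of *bmm* overexpression over control between 0.93 and 1.17 for *kl-5*, the gene with the most counts, and between 0.54 and 1.48 for *PRY*. A change of 2-fold in either direction lay outside the interval of each of the 9. Without control male library 1, which held the most yolk and eggshell transcripts, the 9 log2 fold changes lay between −0.33 for *PRY* and 0.10 for *kl-5*, that of *WDY* was 0.05, and again 0 of 9 passed.

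**Figure D2:**
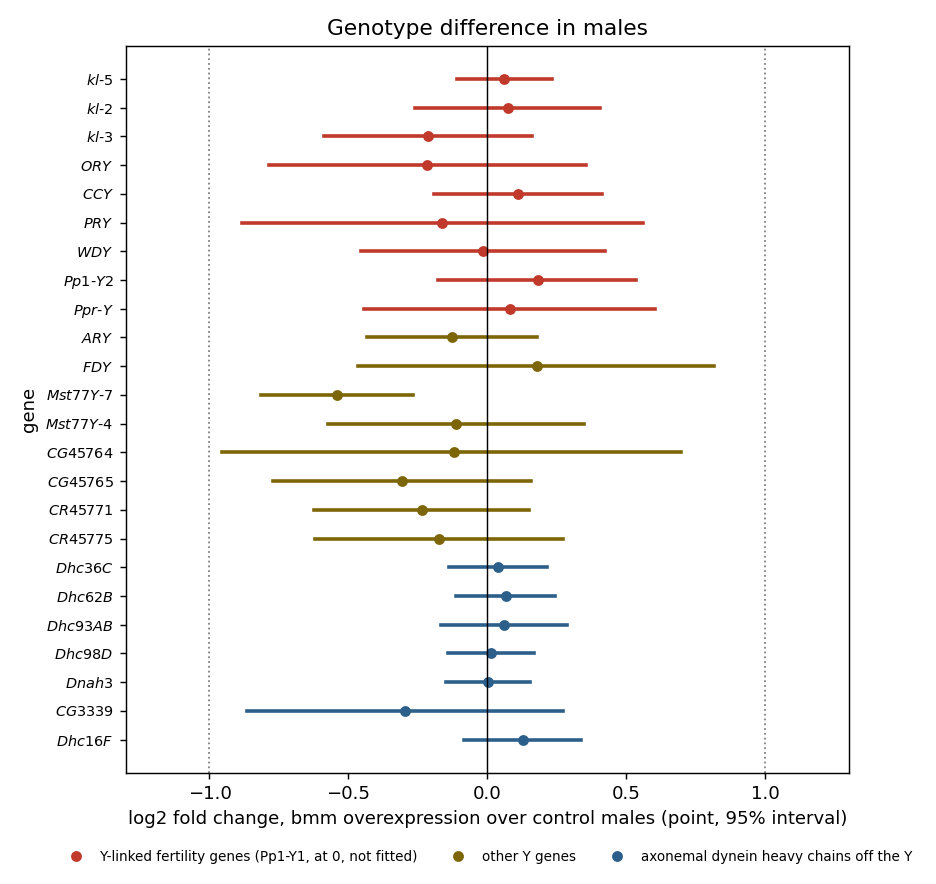
Log2 fold change of *bmm* overexpression over control males (x axis, points) with its 95% interval (lines) for the 9 detected Y-linked fertility genes, 8 other Y genes and 7 axonemal dynein heavy chains encoded off the Y (y axis). Dotted lines mark a log2 fold change of 1 in either direction, and the 9 points lie between −0.22 and 0.18 with intervals that all cross 0.

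The summed level of the 10 genes was 49.6, 48.0 and 46.6 CPM in *bmm* overexpression males and 43.8, 49.8 and 45.1 CPM in control males, and the groups overlapped. The spread between libraries, over both male groups, was below or close to the counting error for *kl-5*, *WDY* and *Ppr-Y*. It was above it in value for the other 6 genes. By a chi-square test against counting error, p was 0.17 for *kl-3* and 0.0496 for *kl-2*, so the excess of *kl-3* is not shown. Over the 6 male libraries the coefficient of variation of *kl-5* was 3.74%, where counting alone gives 4.88% at its depth. That of *kl-2* was 11.1% beside 7.31% from counting, that of *kl-3* 12.0% beside 9.85%, and that of *CCY* 12.9% beside 5.24%. *Pp1-Y2* varied by 12.7% beside 7.92%. *WDY* varied by 11.4% beside 12.5%, and *Ppr-Y* by 16.2% beside 15.2%. *ORY* (21.8% beside 12.9%) and *PRY* (29.2% beside 14.1%) varied most.

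In females the 10 genes had next to no reads. Of the 60 values in female libraries, 58 were 0 counts, and the exceptions were 1 count of *kl-3* in female *bmm* overexpression library 2 and 1 count of *Ppr-Y* in female *bmm* overexpression library 3. No gene of the 10 passed the filter in females, so genotype was not tested there. The 9 detected genes had at least 32 counts in each male library and at most 1 in each female library, so they entered a comparison of the sexes only through the males, and the levels are given as a description with no test. Over all genes tested, 42.9% were higher in males under *bmm* overexpression and 44.9% in controls at an adjusted p under 0.05 together with a log2 fold change over 1, and nothing is read from these shares about the 9. With 3 counts over the summed female libraries as the floor, *kl-5* was at least 375-fold higher in males than in females under *bmm* overexpression and at least 394-fold higher in controls. These were the highest bounds, since *kl-5* had the most counts. The bounds of *CCY* were 328-fold and 327-fold, those of *kl-2* 167-fold and 173-fold, and those of *Pp1-Y2* 146-fold and 139-fold, each under *bmm* overexpression and then in controls.

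For the scarcer genes the depth allowed less. *ORY*, *WDY* and *PRY* were at least 49.4-fold, 55.2-fold and 40.3-fold higher in males under *bmm* overexpression and at least 63.5-fold, 61.3-fold and 48.6-fold higher in controls. *kl-3* was at least 107-fold and *Ppr-Y* at least 39.7-fold higher in control males than in control females. Under *bmm* overexpression each had 1 female count, below the floor, and the ratio of the sexes was 252 for *kl-3* (95% counting interval 44.9 to 9989) and 117 for *Ppr-Y* (20.6 to 4639). These ratios rest on 1 count and cannot be set against the bounds.

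Whether the genotype difference itself differed between males and females was tested by the interaction of genotype and sex. Of the 9 genes 0 passed an adjusted p under 0.05, with adjusted p between 0.59 and 1, while 2.91% of all 13988 genes tested did. Since the female counts were 0 or 1, this test holds little information on these genes.

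Among themselves the genes were compared per length, as CPM per kb of annotated exon, over the 6 male libraries. Read counts follow gene length, so the order changed, and *kl-5*, first in mean CPM, fell behind *Pp1-Y2* and *CCY* per length. *Pp1-Y2* stood at 4.0 ± 0.5 CPM per kb, and *CCY* followed at 2.94 ± 0.38 (SD, n = 6 here and below). Their ranges overlapped, although *Pp1-Y2* was above *CCY* within each of the 6 libraries. *kl-5*, at 1.00 ± 0.04 CPM per kb, was below *CCY* with no overlap. *Ppr-Y* (0.82 ± 0.13 CPM per kb), *ORY* (0.72 ± 0.16) and *WDY* (0.61 ± 0.07) came next, and neighbours from *kl-5* to *WDY* overlapped in range. *kl-5* was above *Ppr-Y* in 6 of 6 libraries, *Ppr-Y* above *ORY* in 3 of 6 and *ORY* above *WDY* in 4 of 6. *kl-2* (0.45 ± 0.05 CPM per kb) lay below *WDY* with no overlap and could not be ordered against *PRY* (0.43 ± 0.13), being above it in 3 of 6 libraries. *kl-3* was the lowest of the detected genes per length at 0.24 ± 0.03 CPM per kb, below *PRY* in all 6 libraries.

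The 3 dynein heavy chains, which have nearly the same exon length, were thus unequal in level. Per length, *kl-5* was 2.21 ± 0.25 times *kl-2* in *bmm* overexpression males and 2.24 ± 0.31 times in control males (SD, n = 3 each). It was 4.62 ± 0.86 times *kl-3* in *bmm* overexpression males and 3.75 ± 0.11 times in control males. *kl-2* was 2.08 ± 0.15 times *kl-3* in *bmm* overexpression males and 1.71 ± 0.31 times in control males. The order *kl-5* above *kl-2* above *kl-3* held in each of the 6 libraries.

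Among the 9 detected genes, the 2 with the smallest spans had the highest levels per length, and the remaining 7, all with spans over 45 kb, lay between 0.24 and 1.00 CPM per kb. Spearman's rho between span and level per length was −0.45 over the 9 detected genes, and between exon length and level per length it was −0.48. These are descriptions over 9 genes measured in the same libraries, with no test.

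**Figure D3:**
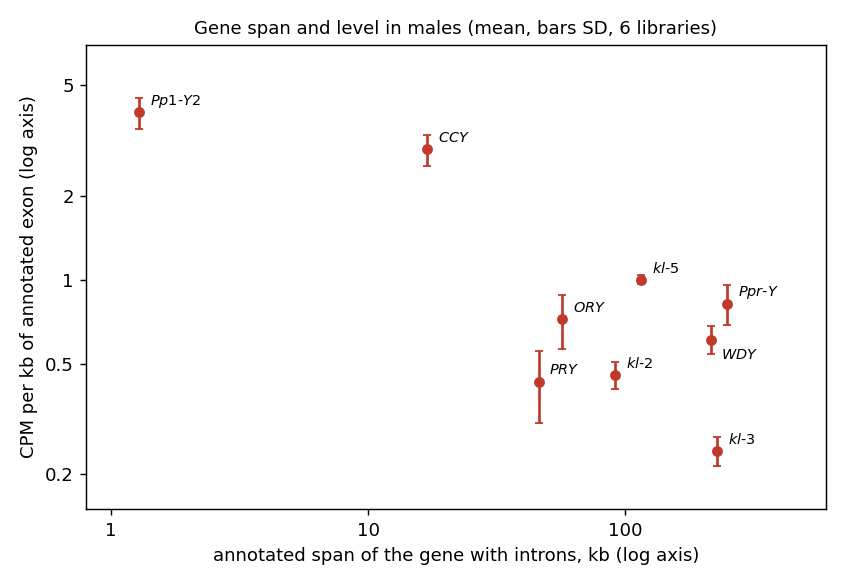
Level in males (y axis, CPM per kb of annotated exon, log scale, mean with SD over 6 libraries) against the annotated span of the gene with its introns (x axis, kb, log scale) for the 9 detected Y-linked genes. *Pp1-Y2* and *CCY* stand at the upper left with 4.0 and 2.94 CPM per kb, and the 7 genes with spans from 45.9 to 248 kb lie at or below 1.00 CPM per kb.

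The Y-linked genes were set beside their relatives on other chromosomes. The 7 other axonemal dynein heavy chain genes, which work in the same kind of motor, lay between 0.30 and 5.14 CPM per kb in males. *Dnah3* was the highest at 5.14 ± 0.29, followed by *Dhc36C* at 4.4 ± 0.3, *Dhc98D* at 3.07 ± 0.18, *Dhc16F* at 2.39 ± 0.23 and *Dhc62B* at 2.18 ± 0.14 CPM per kb (SD, n = 6). All 3 Y-linked dyneins were below these 5 genes with no overlap. *Dhc93AB*, at 0.54 ± 0.02 CPM per kb, lay below *kl-5* and overlapped *kl-2*, and *CG3339*, at 0.30 ± 0.08, overlapped *kl-3*. The Y-linked dyneins had 1 count in females in all, while each of the 7 had reads there, and *Dhc36C* reached 1.46 ± 0.20 and *Dnah3* 0.015 ± 0.004 CPM per kb (SD, n = 6). In males 0 of the 7 passed an adjusted p under 0.05 between the genotypes. Their median log2 fold change was 0.04, the lowest was that of *CG3339* at −0.30 (SE 0.25, adjusted p = 0.82) and the highest that of *Dhc16F* at 0.13 (SE 0.09, adjusted p = 0.82).

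Among catalytic subunits of PP1, *Pp1-Y2* was below all 8 genes of the family on other chromosomes. The broadly expressed *Pp1-87B* and *Pp1alpha-96A* stood at 88.2 ± 2.5 and 79.4 ± 8.2 CPM per kb in males. *flw* and *Pp1-13C* stood at 16.1 ± 0.7 and 18.5 ± 1.3 CPM per kb in males. *PpY-55A*, *PpN58A*, *PpD5* and *PpD6* were nearer to *Pp1-Y2*, at 10.6 ± 0.5, 10.2 ± 0.9, 8.18 ± 0.60 and 5.28 ± 0.44 CPM per kb in males. Like *Pp1-Y2*, the genes *PpY-55A*, *PpN58A* and *PpD6* had 0 counts in all 6 female libraries. None of the 8 passed an adjusted p under 0.05 between male genotypes, and their median log2 fold change was −0.03. *Pp1alpha-96A* was the highest at 0.25 (SE 0.05, adjusted p = 0.11) and *PpY-55A* the lowest at −0.06 (SE 0.08, adjusted p = 0.96).

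**Figure D4:**
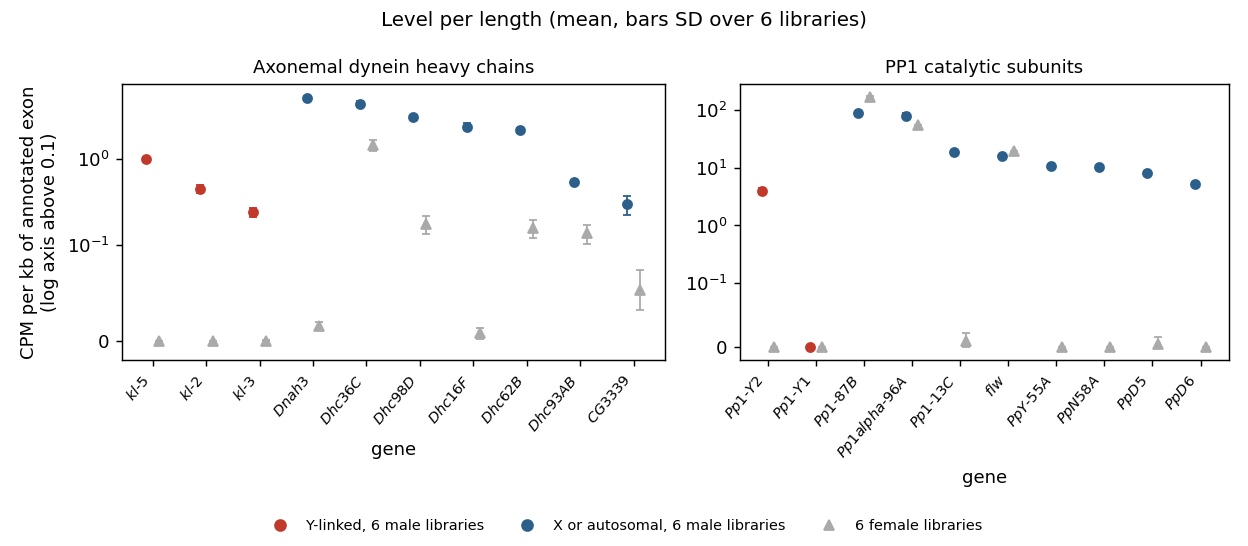
Levels of axonemal dynein heavy chains (left) and PP1 catalytic subunits (right) as CPM per kb of annotated exon (y axes, log scale above 0.1), mean with SD over 6 libraries, with males left of females for each gene. Red circles are Y-linked genes in males, blue circles are genes of the X or an autosome in males and grey triangles are females, and the Y-linked genes lie at or below 4.0 CPM per kb in males and at or near 0 in females.

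Of the other 103 Y genes, 56 had at least 1 count in males and 47 had none in any library. A mean of at least 1 CPM in males was reached by 7. *ARY*, which encodes an aldehyde reductase, led with 251, 208 and 246 counts in *bmm* overexpression males and 305, 226 and 229 in control males. Its level, 7.90 CPM on average, lay between *CCY* and *kl-2*, the groups overlapped, and its log2 fold change was −0.13 (SE 0.13, adjusted p = 0.92). The remaining 6 lie in the *Mst77Y* array, a set of near-identical copies derived from a sperm chromatin gene. They are *Mst77Y-7* (7.46 CPM), *CG45765* (3.89 CPM), *CR45771* (3.37 CPM), *Mst77Y-4* (3.31 CPM), *CR45775* (2.88 CPM) and *CG45764* (1.51 CPM), and the split of reads among such copies is uncertain. *Mst77Y-7* had 190, 204 and 177 counts in *bmm* overexpression males and 334, 260 and 222 in control males, and its groups did not overlap. It had a log2 fold change of −0.54 (SE 0.12, adjusted p = 0.026 by the exact test and 0.065 by the quasi-likelihood test), short of the fold change the call asks for. The other 5 had log2 fold changes between −0.31 and −0.11 and adjusted p of at least 0.72. *FDY*, a recent arrival on the Y chromosome, was below the level rule, with 26, 32 and 29 counts in *bmm* overexpression males and 21, 29 and 24 in control males.

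Genes of the testis, the organ in which the Y-linked genes are transcribed, were measured in the same libraries. Spermatocyte genes summed to between 1929 and 2118 CPM in *bmm* overexpression males and between 1930 and 2174 CPM in control males. Spermatid genes summed to between 5966 and 6632 CPM in *bmm* overexpression males and between 5836 and 6940 CPM in control males. In females these lists summed to 410 to 510 CPM and to 74.4 to 86.3 CPM. Of the 9 spermatocyte genes, 2 were lower and 7 higher in males than in females in both genotypes (adjusted p under 0.05, quasi-likelihood test). At that threshold 12944 of all 13988 genes tested differed between the sexes in controls and 12802 under *bmm* overexpression. A sex difference is thus the background, and nothing is read from it about this list. Between male genotypes, 0 of 9 spermatocyte genes, 0 of 30 spermatid genes and 0 of 12 spermatocyte transcription regulators passed an adjusted p under 0.05 in either direction, with median log2 fold changes of −0.04, −0.02 and 0.02. Among the spermatocyte genes the ends were *CycB3*, a cyclin also used in the ovary, at −0.92 (SE 0.34, adjusted p = 0.11) and *bb8* at 0.06 (SE 0.07, adjusted p = 0.95). Among the spermatid genes they were *Mst84Da* at −0.13 and *h-cup* at 0.13, and among the regulators *topi* at −0.33 and *tomb* at 0.46 (adjusted p of at least 0.31 for all 4).

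The sum of the Y-linked genes over the median spermatocyte gene was 0.427, 0.437 and 0.416 in *bmm* overexpression males and 0.439, 0.423 and 0.432 in control males. Over the median spermatid gene it was 0.547, 0.565 and 0.556 in *bmm* overexpression males and 0.539, 0.537 and 0.532 in control males. The first ratio overlapped between genotypes. The second was higher in each of the 3 *bmm* overexpression libraries, and an exact permutation test of 3 against 3 cannot give a two-sided p below 0.1.

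*blanks* and *heph*, which encode RNA-binding proteins known to be needed for the transcripts of the large Y genes, had log2 fold changes of −0.02 (SE 0.10, adjusted p = 0.996) and 0.03 (SE 0.07, adjusted p = 0.98) between male genotypes. In the early germline, 2 of 5 genes had an adjusted p under 0.05 between male genotypes, beside 4.31% of all genes tested. Both were lower in *bmm* overexpression males. *nos*, the translational repressor *nanos*, had a log2 fold change of −2.52 (SE 0.59, adjusted p = 0.0011). *aub*, a piRNA pathway gene, had −0.76 (SE 0.21, adjusted p = 0.037). The highest of the 5 was *bgcn* at 0.17 (SE 0.07, adjusted p = 0.59). This list summed to 27.8 to 31.7 CPM in *bmm* overexpression males and to 56.8, 35.9 and 32.6 CPM in control male libraries 1, 2 and 3. The yolk and eggshell sums of the control males fell in the same order. No fit without control male library 1 is given for these genes. In every female library the list summed to at least 479 CPM, and 4 of its 5 genes were lower in males than in females in both genotypes. Between the male genotypes all 23 yolk, vitelline membrane and chorion genes tested were lower in *bmm* overexpression. Their log2 fold changes ran from −4.52 for *Vml* to −1.85 for *Fcp3C* with a median of −3.94. The part of female transcripts in the early germline values was not tested. Of 4 genes of the testis soma 0 passed, with *tj* at −0.93 (SE 0.35, adjusted p = 0.19) and *upd1* at 0.18 (SE 0.14, adjusted p = 0.87). These 4 genes summed to 37.0 to 44.8 CPM in males and to 162 to 192 CPM in females. In both genotypes 3 of them were lower and 1 was higher in males than in females (adjusted p under 0.05, quasi-likelihood test). Of all 13988 genes tested, 12944 differed between the sexes at that threshold in controls and 12802 under *bmm* overexpression. Nothing is thus read from the counts between the sexes about the early germline or the testis soma genes. The part of female transcripts in the male values of the testis soma genes was not tested. Of 23 accessory gland genes 1 was higher, *Acp33A* at 0.43 (SE 0.09, adjusted p = 0.009), and 1 lower, *Acp24A4* at −0.42 (SE 0.09, adjusted p = 0.015), while the lowest value was that of *Acp76A* at −0.64 (SE 0.30, adjusted p = 0.33).

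Over the 6 male libraries, the genes whose levels went most closely with the mean of the 9 detected Y-linked genes were *TTLL6B* (Pearson's r = 0.995), *CG17349* (0.990), *ntc* (0.989), *Pka-C2* (0.989) and *CG42393* (0.988), from 10395 genes with a mean of at least 5 CPM in males. *TTLL6B* belongs to the tubulin tyrosine ligase-like family, *ntc* encodes an F-box protein needed for caspase activity in spermatids, and *Pka-C2* encodes a catalytic subunit of protein kinase A. Their means were 102, 67.2, 69.4, 27.7 and 115 CPM in males and 1.94, 0.03, 20.9, 3.02 and 0.03 CPM in females. The rule asked for a minimum level in males only, so nothing is read from this difference. The correlations are the highest of 10395 over 6 points that share library and depth, and they were not set against chance. Over these 6 points the mean log2 CPM of the Y-linked genes moved only between 2.07 and 2.21.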

How the data were processed

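Whole-fly RNA of 12 libraries, 3 per group of sex and genotype, was compared. The authors aligned reads to BDGP6.28 (HISAT2), filtered alignments by mapping quality and counted them per gene (featureCounts). The strand setting and versions were not given in the sources used here. They deposited whole-number counts, without normalization, for 17807 gene symbols. They also deposited a signal named CPM for 14246 symbols, which is the count divided by 1 factor per library. Its columns sum to 911105 to 960009 in males and to 1.04e+06 to 1.13e+06 in females. The folds between the sexes given as bounds or ratios are on this scale. *Pp1-Y1* had no such value, and its level is 0 on that scale.

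Genotypes were compared within each sex with edgeR 4.0.16 (R 4.3.3) on the counts, with filterByExpr, TMM normalization, exact tests and Benjamini-Hochberg adjustment over all genes tested. A call needed an adjusted p under 0.05 with a log2 fold change beyond 1 in either direction. Standard errors, 95% intervals, contrasts between the sexes and the interaction came from edgeR's quasi-likelihood fit. DESeq2 1.42.0, limma 3.58.1, other scalings, no filter, a replicate block and leaving out each library were alternatives. The methods were tested on simulated counts. Intervals from counts cover counting error only, and p-values measure the spread between 3 pools per group.

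Positions and exon lengths were looked up by symbol in the BDGP6.54 annotation. The Y-linked genes and the lists were chosen with earlier results of these data known. Named beside them are the extremes of each list in males, list genes that passed the call, Y genes of at least 1 CPM in males, and the 5 genes with the highest Pearson correlation of log2(CPM + 0.5). *Acp24A4*, *aub*, *FDY*, *CR41506* and the relatives given by level were named after their values were seen. *Pp1-Y3*, *Mst77Y*, *Maca*, *Mst57A* of the spermatocyte genes and *rye* of the spermatocyte transcription regulators matched no single symbol.

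Same-numbered replicates were taken as paired only if all 3 correlated above 0.1 in their deviations from the group means. In females they did (0.285, 0.198 and 0.394), though no Y-linked gene was tested there. The blocked quasi-likelihood fit called 135 genes in females, against 114 by the quasi-likelihood test without the block and 148 by the exact test. In males the same-numbered replicates did not correlate in this way.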

Additional observations from a re-analysis of the deposited data

How the results depend on the processing

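The count of Y-linked genes under an adjusted p of 0.05 was 0 in all 15 alternatives for genotype in males. For the interaction and the contrasts of the sexes, female counts of 0 or 1 leave that count no room to move, so the alternatives say nothing about its stability there. The counts over all genes moved more. Genotype in males called 205 genes by the exact test, but 59 by the quasi-likelihood test and 120 by that test with the replicate block. With limma-trend it called 80 and 38 genes at a pseudocount of 0.1 and 1. The replicate numbers of males share only a number, with correlations of −0.0045, 0.12 and −0.014. Genotype in females called 148 genes, but 95 by DESeq2 and 44 by limma-trend with a pseudocount of 1. The interaction gave 407 genes, but 738 by DESeq2, 247 by limma-trend, 255 with the replicate block and between 61 and 568 when 1 library was left out, with 61 to 219 genes without any one of the 10 libraries other than control males 1 and 3. The causes were not tested. Of 135 log2 fold changes of the 9 genes under the alternatives, 9 changed sign, all near 0. *WDY* was 0.00034 and 0.00031 by limma-trend with a pseudocount of 0.1 and 1. Leaving out 1 library moved *WDY* between −0.12 and 0.087, *PRY* between −0.45 and 0.091, *Ppr-Y* between −0.045 and 0.25 and *kl-2* between −0.014 and 0.19. The 5 other genes kept their sign throughout. Scaled by the library total in place of the authors' factor, the mean level of *kl-5* in males was 14.6, against 13.7 CPM. *PRY* and *Ppr-Y* had 32 to 62 counts per male library, which limits the precision of their fold changes.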

Other observations

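Of the other 103 Y genes, 3 pseudogenes had more counts per depth in females than in males, and the most abundant was *CR41506*, which starts 23582 bases beyond the end of *FDY*. It had 15, 13 and 8 counts in *bmm* overexpression males and 22, 21 and 11 in control males. In females it had 29, 47 and 22 counts under *bmm* overexpression and 70, 47 and 55 in controls. Males averaged 0.486 CPM and females 1.6 CPM. The difference between the sexes passed an adjusted p under 0.05 in both genotypes (adjusted p = 0.00066 under *bmm* overexpression and 0.00026 in controls, quasi-likelihood test). So did 12802 of all 13988 genes tested under *bmm* overexpression and 12944 in controls. The 10 fertility genes together had 2 counts in females. Between female genotypes the log2 fold change of *CR41506* was −0.62 (SE 0.29, adjusted p = 0.17). Whether its reads come from near-identical sequence on another chromosome was not tested.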
